A study of Arabidopsis thaliana with 4 samples.

Results

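The pericentromeric genes of chromosome 3 of Arabidopsis thaliana are taken here as the loci numbered AT3G30800 to AT3G44000. Locus numbers largely follow the gene order of a chromosome, so the interval is a stretch of neighbouring genes. Its members were chosen by locus number alone, though the interval itself was proposed with results of these arrays known. The RefSeq gene table lists 746 loci in it, of which 145 were matched to a probe of the array. Of these, 78 were bright enough to be tested, out of 20525 tested genes in all and 4012 tested genes elsewhere on chromosome 3. The other 67 matched loci were too dim in both RNAs.

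RNA pairs were compared on 4 Agilent 2-colour arrays. On each array, total RNA of wild-type Col seedlings carried the green dye Cy3 and total RNA of seedlings with the genotype vim1,2,3 carried the red dye Cy5. All plants were 14 days old, were raised on diluted B5 medium under a daily cycle of 16 h light and 8 h dark, and were collected 6 h after lights-on. The alleles behind vim1,2,3 and the number of plants pooled per sample are not in the labels. No array had the dyes swapped, so an effect of the dye on a probe cannot be told apart from the genotype. Ratios below are on the log2 scale, above 0 where the RNA labelled vim1,2,3 was brighter than Col, and are summarised as mean ± SD (n = 4 arrays), and a gene was called at an adjusted p under 0.05 together with a change of at least 2-fold.

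VIM1, VIM2 and VIM3 are RING-finger proteins with an SRA domain that binds methylated cytosine, and they are needed to copy CG methylation onto newly made DNA. Pericentromeric DNA flanks the centromere and is packed as heterochromatin, rich in transposable elements and dense in CG methylation. Genes within it are sparse and lie between transposons and pseudogenes, and some of them are kept silent with the surrounding DNA.

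The genotype label was checked first on the genes it names. VIM1 (AT1G57820) was at -2.22, -2.46, -1.61 and -0.74 on arrays 1 to 4, lower in the RNA labelled vim1,2,3 on each. VIM2 (AT1G66050) was at -1.42, -1.31, 1.82 and 1.11, and VIM3 (AT5G39550) at -1.06, -1.29, 1.62 and 0.25, so that both went against the label on arrays 3 and 4. VIM4 (AT1G66040), which the label does not name, had the same signs, at -0.96, -1.63, 2.22 and 0.61. Whether the probes of these genes also bind each other's transcripts was not assessed. Of 8 genes for the maintenance of CG methylation (MET1, DDM1 and VIM1 to VIM6), 2 were called lower, VIM1 and VIM5, and 0 higher, where 2.13% of all tested genes were called lower. The call of VIM1 was lost without array 1 (adjusted p = 0.0769 by limma) or array 3 (adjusted p = 0.129 by limma). The median over these 8 was -0.24. The samples are therefore described as RNA labelled vim1,2,3, and results are also given without arrays 3 and 4.

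The median spot signal ranged from 637 to 1270.5 in Col and from 949 to 1718 in the other RNA over the 4 arrays. On each array 75.8% to 85.2% of the Col spots and 68.6% to 81.5% of those of the other RNA exceeded background clearly, and the number of arrays limits the precision. All 4 leaf markers (RBCS1A, CAB1, RCA and GAPA) were well above background in both channels on 4 arrays, and saturated in the red channel on each. Also well above background in both channels on 4 arrays were 1 of 2 root genes (PYK10, with EXPA7 not tested) and 2 of 4 seed genes. One of these seed genes, SESA3 (AT4G27160), was saturated in both channels on each of the 4 arrays. Of 4 floral markers, 1 was well above background in both channels on 4 arrays, and PI (AT5G20240) was called lower at -2.20. In whole seedlings, fewer cells of a type and less RNA per cell cannot be told apart.

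Pericentromeric genes of chromosome 3 were called higher in the RNA labelled vim1,2,3 more often than genes elsewhere on the chromosome. Of the 78 tested, 13 were called higher (16.7%) and 4 lower (5.13%). The background was 3.34% higher and 1.79% lower among the other tested genes of chromosome 3, and 3.22% and 2.13% among all tested genes. The share called higher was thus 4.99 times that of the other chromosome 3 genes. This ratio was 9.43, 3.90, 13.6 and 12.1 without arrays 1 to 4 in turn, when fewer genes passed the test in most cases. The interval held 1.91% of the tested genes of chromosome 3 and 8.84% of those called higher. Because of how the interval was proposed, no p-value is given for it as a group.

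**Figure D1:**
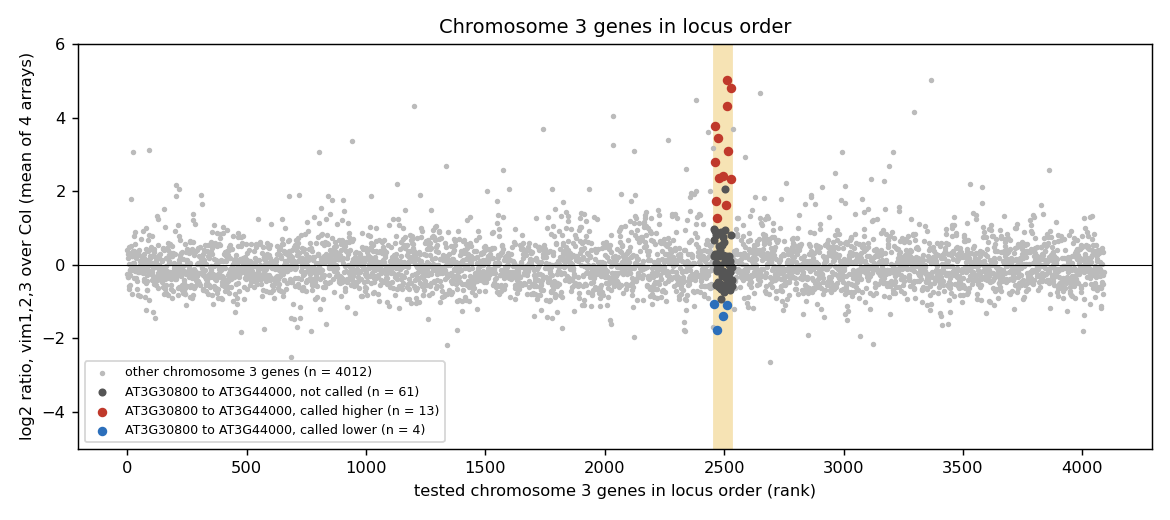
Each point is a tested gene of chromosome 3, with its rank in locus order on the x axis and its mean log2 ratio over 4 arrays on the y axis. The shaded band marks the 78 tested genes of AT3G30800 to AT3G44000, where the 13 genes called higher reach 5.02 and the 4 called lower reach -1.78.

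The rises were also large. Among the 13 genes called higher the median log2 ratio was 2.79, against 1.49 among the 134 called higher elsewhere on chromosome 3. A rise of at least 4-fold was seen for 10 of the 13 and for 40 of the 134, and a rise of at least 16-fold for 3 and for 6. The 4 genes called lower had a median of -1.25, like the 72 called lower elsewhere on the chromosome (-1.25), and 0 of the 4 fell by 4-fold or more.

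The interval as a whole moved little. The median over its tested genes was 0.12, 0.14, 0.11 and 0.09 on arrays 1 to 4, and it lay above that of the other chromosome 3 genes by 0.14 ± 0.02 (SD, n = 4). The interquartile range ran from -0.41 to 0.79, against -0.36 to 0.31 elsewhere on the chromosome, so the interval differed in its upper tail. Of the 78 genes, 28 (35.9%) were above 0 on 4 of 4 arrays, against 19.6% of the other chromosome 3 genes and 18.5% of all genes. Below 0 on 4 of 4 arrays were 20 of the 78 (25.6%), against 21.5% and 22.5%. These quartiles and counts include genes bright enough only with the help of the red channel, and were not repeated without them. With both channels required on 4 arrays, the median of the interval was 0.0011 and its difference from other chromosome 3 genes 0.073. The spread between arrays was of the usual size, with a median SD of 0.34 per gene in the interval and 0.37 elsewhere on the chromosome.

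The filter on dim spots bears on these counts, because a silent gene that rises becomes bright enough to be tested. Of the 78 genes, 7 were well above background in Col on fewer than 3 arrays, 3 of them on none, and so passed with the help of the other channel. They include 4 of the 13 rises (AT3G31910, AT3G32200, AT3G43150 and AT3G43880). When the comparison was limited to genes well above background in Col on all 4 arrays, 7 of 64 in the interval were called higher (10.9%), against 110 of 3781 elsewhere on chromosome 3 (2.91%). With no filter at all, 13 of the 145 matched loci were called higher (8.97%), against 2.39% elsewhere on the chromosome. The share was higher in the interval in both counts. Of the 7 rises with Col well above background on 4 arrays, 5 were at least 4-fold, with a median of 3.45, against 31 of the 110 elsewhere on the chromosome, with a median of 1.44.

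**Figure D2:**
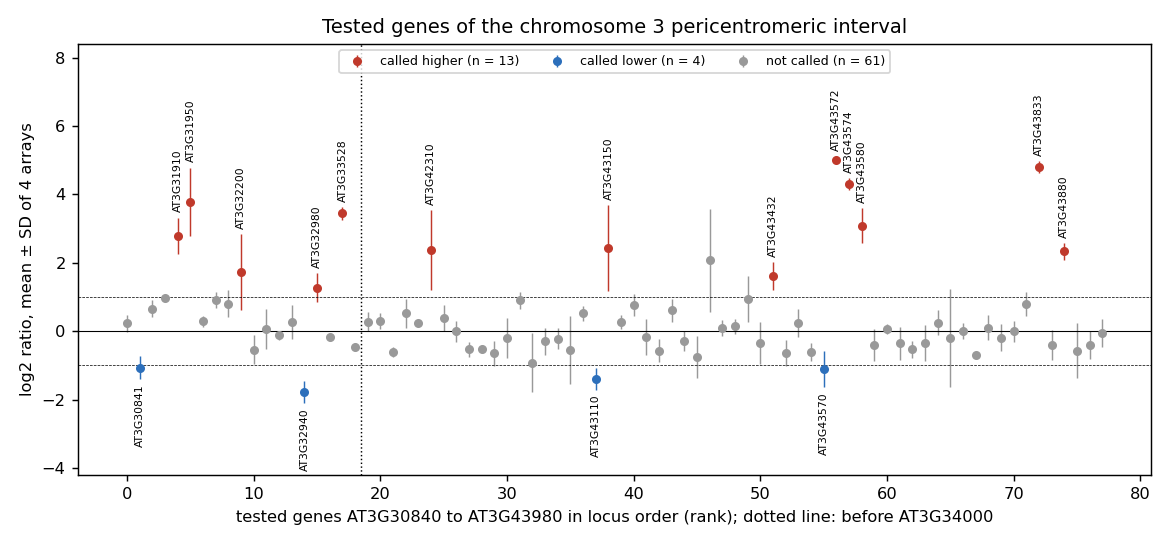
The 78 tested genes stand in locus order on the x axis, with the mean log2 ratio and the SD over 4 arrays on the y axis, and dashed lines at 2-fold. Red points are the 13 genes called higher, among them the adjacent AT3G43572, AT3G43574 and AT3G43580, and blue points the 4 called lower.

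AT3G43572 had the largest rise of the interval. The deposited processed intensity of its probe was 167.6, 178.5, 216 and 263.4 in Col and 7109, 7266, 10050 and 11460 in the RNA labelled vim1,2,3 on arrays 1 to 4. The channels did not overlap, and the ratio hardly varied, at 5.05, 4.89, 5.10 and 5.05 (5.02 ± 0.09, SD, n = 4, adjusted p = 4.24e-05, 32.5-fold). The next locus, AT3G43574, went from 687.2, 469.5, 1787 and 1665 in Col to 13470, 13400, 34060 and 32740. Its log2 ratio was 4.30 ± 0.18 (adjusted p = 6.28e-05, 19.7-fold). The third gene of this run, AT3G43580, rose 8.52-fold, at 3.74, 2.85, 2.58 and 3.20 on the 4 arrays (3.09 ± 0.50, adjusted p = 0.00107).

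These 3 genes were neighbours among the tested genes of the chromosome and rose together. No RefSeq locus lies between AT3G43572 and AT3G43574, and 3 lie between AT3G43574 and AT3G43580. The genes on either side did not rise. AT3G43570, next to AT3G43572 with no RefSeq locus between them, was called lower at -1.71, -0.98, -0.45 and -1.28 (-1.11 ± 0.53, adjusted p = 0.0356), with the RNA labelled vim1,2,3 well above background on 1 of 4 arrays. On the other side, AT3G43583 was at -0.40 ± 0.46 and not called. RefSeq gives none of these 5 loci a name, so their roles are not stated.

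AT3G43833 also rose strongly. Its intensity was 981.4, 982.1, 1927 and 1783 in Col and 30010, 32510, 46500 and 56690 in the RNA labelled vim1,2,3. The log2 ratio was 4.90, 4.94, 4.56 and 4.77 (4.79 ± 0.17, adjusted p = 5.06e-05, 27.7-fold), and the red channel was saturated on 1 of 4 arrays, which caps the ratio there. Its tested neighbours were not called. They were CAM7 (AT3G43810), a calmodulin that binds calcium, at 0.80 ± 0.35, and AT3G43840 at -0.41 ± 0.44, where the red channel never cleared background.

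AT3G33528 showed an even rise, with intensities of 118.2, 153.6, 202.5 and 211.5 in Col and 1796, 1899, 3176 and 3053 in the RNA labelled vim1,2,3. Its log2 ratios of 3.44, 3.19, 3.67 and 3.48 gave 3.45 ± 0.20 (adjusted p = 0.000116, 10.9-fold). Both genes next to it in locus number, ARP6 (AT3G33520), which RefSeq places after it, and AT3G33530, were below 0 on 4 of 4 arrays and not called. AT3G33530 had 3 probes, at -0.98, -0.47 and 0.17.

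AT3G31910 and AT3G31950 formed the other run of adjacent rises, with 7 RefSeq loci between them. AT3G31910 was at 2.24, 2.44, 3.35 and 3.12 (2.79 ± 0.53, adjusted p = 0.00203), and its other probe averaged 1.99. One RefSeq pseudogene overlaps AT3G31910, so its signal cannot be assigned to that gene alone. AT3G31950 was at 2.28 on array 1 and at 4.15, 4.50 and 4.18 on arrays 2 to 4 (3.78 ± 1.01, adjusted p = 0.00506, 13.7-fold). With the scanner's processed signals its mean was 4.98. Col was well above background on 1 of 4 arrays for AT3G31910 and on 3 of 4 for AT3G31950.

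Of the 13 genes called higher, 2 had no Col signal well above background on any array, and their change is a bound. AT3G43880 was at least 5.04-fold higher, with log2 ratios of 2.16, 2.11, 2.62 and 2.45 (adjusted p = 0.000859) and the RNA labelled vim1,2,3 well above background on 4 arrays. Its bound equals its plain fold of 5.04, and the scanner's processed signals gave a log2 ratio of 4.00. AT3G32200 was at least 3.29-fold higher, but unevenly, at 1.63, 0.94, 1.03 and 3.34 (adjusted p = 0.0466), with that RNA well above background on 3 of 4 arrays. Its call was lost without array 1 (1.77), array 3 (1.97) or array 4 (1.20), and with no filter on dim probes.

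The log2 ratios of AT3G42310 and AT3G43150 were above 0 on every array and larger on arrays 3 and 4. AT3G42310 gave 1.19 and 1.55 on the first pair of arrays, then 3.37 and 3.36 (2.37 ± 1.16, adjusted p = 0.0275). AT3G43150 was at 1.53 and 1.16 and then at 3.62 and 3.38 (2.42 ± 1.26, adjusted p = 0.0309). VIM2 and VIM3 were also higher on arrays 3 and 4, and their part in these values was not tested. Without arrays 3 and 4 the ratios were 1.37 and 1.34. The call of AT3G42310 was lost without array 3 or 4, and that of AT3G43150 without array 1, 3 or 4.

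The 2 smaller rises were those of AT3G43432 and AT3G32980. AT3G43432 was at 1.80, 1.75, 1.02 and 1.90 (1.62 ± 0.40, adjusted p = 0.0101, 3.07-fold), and its call was lost without array 4 (adjusted p = 0.0633). AT3G32980 was at 1.81, 0.78, 1.24 and 1.23 (1.27 ± 0.42, adjusted p = 0.021, 2.41-fold). Its intensities of 2001 to 7022 in Col and 4333 to 15870 in the RNA labelled vim1,2,3 overlapped between arrays, and its other probes averaged 0.37 and 0.77. With the mean of its probes the gene stayed short of 2-fold at 0.80, and its call was also lost without array 1, 3 or 4.

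**Figure D3:**
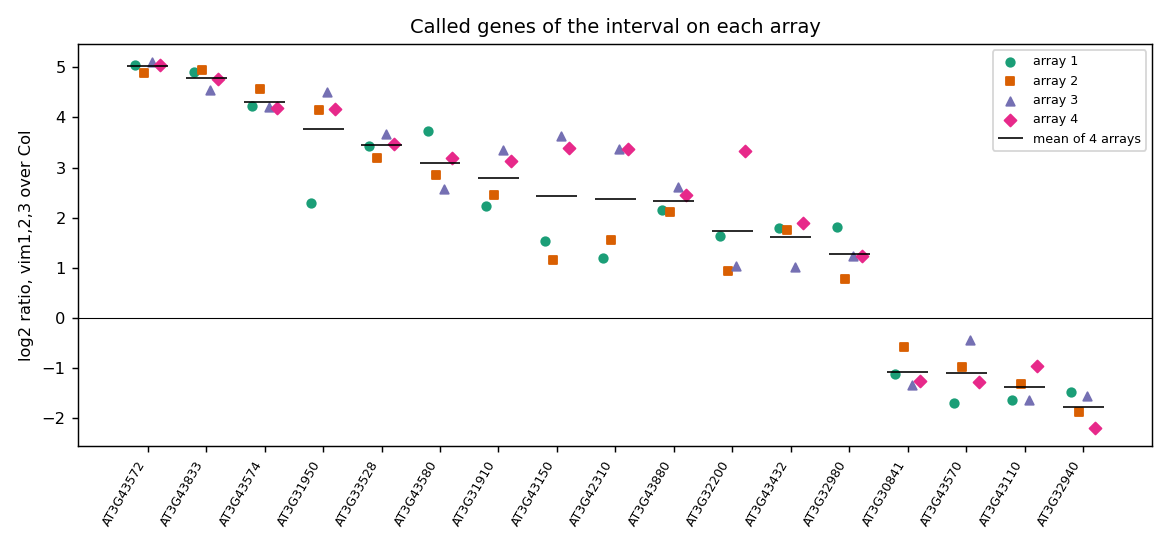
Each symbol is the log2 ratio of a called gene on an array (arrays 1 to 4), and black lines are means of 4 arrays. The 13 genes called higher were above 0 on each array and the 4 called lower below 0, while AT3G43150 and AT3G42310 stood apart on arrays 3 and 4.

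Among the 4 genes called lower, AT3G32940 fell most. Its intensity was 1286, 1545, 3333 and 4775 in Col and 411.9, 367.2, 1053 and 856.7 in the RNA labelled vim1,2,3, at log2 ratios of -1.48, -1.87, -1.55 and -2.20 (-1.78 ± 0.33, adjusted p = 0.00501). RefSeq has it overlapping AT3G32930, which was not called (0.27 ± 0.50). AT3G43110 was at -1.63, -1.32, -1.64 and -0.96 (-1.39 ± 0.32, adjusted p = 0.0116) and AT3G30841 at -1.12, -0.59, -1.33 and -1.25 (-1.07 ± 0.34, adjusted p = 0.0241). The intensity of AT3G43110 was 2174 to 6573 in Col and 524.4 to 2165 in the other RNA. AT3G32940 was called without each array in turn, and AT3G43110 lost its call without array 3 (adjusted p = 0.0886). AT3G30841 lost its call without array 1, 3 or 4, and AT3G43570 without any one of the 4.

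Among tested genes, 3 falls were followed by a rise. AT3G43570 and AT3G43572 have no RefSeq locus between them, whereas 8 lie between AT3G32940 and AT3G32980 and 12 between AT3G43110 and AT3G43150. Of the 13 genes called higher, 5 had a tested neighbour that was also called higher, and 6 had no called neighbour on either side. Elsewhere on chromosome 3, 33 of the 134 genes called higher (24.6%) lay in such runs, of which the longest also held 3 genes.

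**Figure D4:**
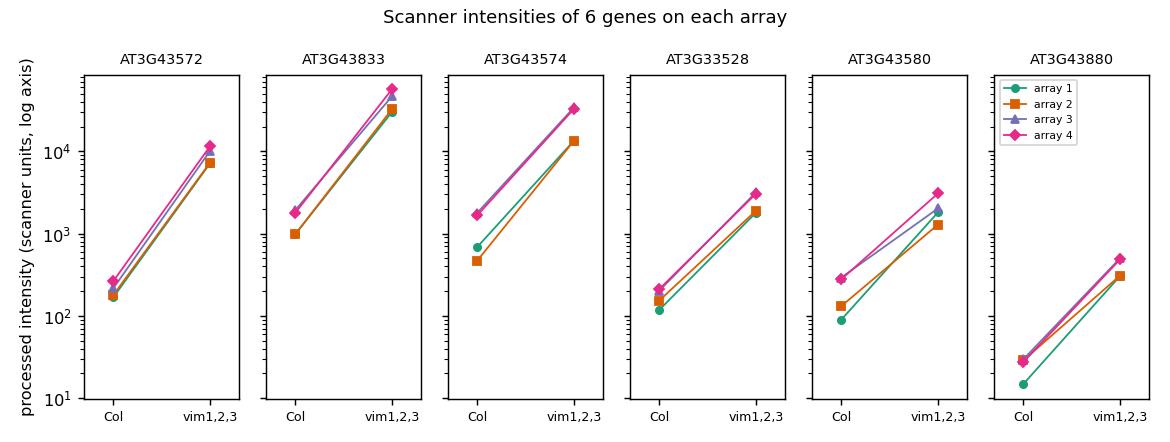
Lines join the processed scanner intensity of Col to that of the RNA labelled vim1,2,3 on the same array, on a log axis, for 6 genes of the interval. All lines rise, from 167.6 to 263.4 in Col to between 7109 and 11460 for AT3G43572, and Col never stood well above background for AT3G43880.

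The called genes are ones without a RefSeq symbol. RefSeq gives a symbol to 17 of the 78 tested genes, and 0 of these were called by limma in either direction, although 3 above 0 and 4 below 0 had an unadjusted p under 0.05. Over all tested genes 33.4% had such a p, 3.22% were called higher and 2.13% lower. The counts of the 17 are not shown to differ from these shares. The 61 genes with only a locus number in RefSeq held all 13 rises and all 4 falls. A missing symbol is not a missing role, since AT3G32980 is named PRX32 in the list of enzymes below. The median of the 17 was -0.18 and that of the 61 was 0.23.

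A list of 5 RNA silencing and chromatin genes of the interval had 4 members tested, and 0 of these were called. CLSY1 (AT3G42670, listed as CHR38), a chromatin remodeller needed to make small interfering RNAs for DNA methylation, was at -0.68, -0.28, -1.16 and -0.48 (-0.65 ± 0.38, adjusted p = 0.0698). DCL3 (AT3G43920), the Dicer-like enzyme that cuts those small RNAs, was at -1.42, 0.35, -0.16 and -1.06 (-0.57 ± 0.81, adjusted p = 0.248). ARP6 (AT3G33520), a subunit of the complex that deposits the histone variant H2A.Z, was at -0.17 ± 0.10, and AT3G42660 at -0.51 ± 0.12. The median of the 4 was -0.54 and that of all tested genes -0.05. CLSY1 (with its red channel above background on 2 of the 4), ARP6 and AT3G42660 were below 0 on 4 of 4 arrays, whereas DCL3 was above 0 on array 2. DAYSLEEPER (AT3G42170), a protein derived from a transposase, was not matched to a probe.

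Of 14 listed enzymes, transporters and signalling genes, 1 was called higher (AT3G32980, above), 0 lower and 13 not, with a median of 0.00. With 3.22% of all genes called higher and 2.13% lower, this count is not shown to differ from the background. Several lay above 0 on all arrays without reaching 2-fold. AL3 (AT3G42790), a PHD-finger protein that binds a histone mark, was at 1.06, 0.53, 0.93 and 1.09 (0.90 ± 0.26, adjusted p = 0.0274). SUS4 (AT3G43190), a sucrose synthase, was at 1.24, 0.59, 0.64 and 0.60 (0.77 ± 0.32, adjusted p = 0.0421), and its 2 tested probes averaged 0.77 and 0.87. CAM7, described above, had an adjusted p of 0.0421 by limma. AL3 was called higher without array 2, at 1.03.

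Others of this list lay below 0. The jasmonate repressor JAZ11 (AT3G43440) was at -0.64 ± 0.39, and the proton pump HA8 (AT3G42640) at -0.53 ± 0.22, both below 0 on 4 of 4 arrays and not called. LTPG2 (AT3G43720), a lipid transfer protein anchored in the membrane, had saturated spots in both channels of each of the 4 arrays, so no fold is given, and its other probe, not saturated in the RNA labelled vim1,2,3, averaged -0.23. The aldehyde oxidase AAO2 (AT3G43600) was at -0.35 ± 0.48. The zinc-induced facilitator-like transporter ZIFL2 (AT3G43790) was at -0.19 ± 0.39 and the kinesin TES (AT3G43210), which acts in male meiotic cytokinesis, at -0.18 ± 0.52. AT3G43660 (0.24), the ARF exchange factor ATMIN7 (AT3G43300, 0.09), the MATH-BTB protein BPM6 (AT3G43700, 0.01) and the glutathione transferase GSTU27 (AT3G43800, -0.01) lay nearest to 0. Probes of opposite sign were found for 4 genes of the interval. They were ATMIN7 (0.09 and -0.41), BPM6 (0.01 to -0.28), AT3G33530 and AT3G42130 (-0.61 and 2.05).

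The array covered one kind of gene in the interval. Pseudogenes make up 576 of its 746 RefSeq loci (77.2%), against 7.33% elsewhere on chromosome 3, and 0 of the 576 were matched to a probe. Elsewhere on chromosome 3, 0 of 504 pseudogenes were matched either. A further 9418 probes of the array matched no locus and were not used here, and whether any lie in pseudogenes of the interval is not known. All 145 matched loci, and so all 78 tested genes, are protein-coding in RefSeq. Of the matched loci 53.8% were bright enough to be tested, against 82% elsewhere on the chromosome. The values therefore say nothing of the pseudogenes and transposons that fill most of the interval.

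The probes of the 67 dim loci gave ratios from -0.50 to 1.36, with a median of 0.08. Of these 69 probes, 40 were not well above background in either channel on any array, and 2 were above a log2 ratio of 1. AT3G32160 (0.60, 0.71, 2.42 and 1.71) and AT3G30820 (0.95, 1.23, 1.41 and 1.43) had the RNA labelled vim1,2,3 well above background on 2 of 4 arrays and Col on none.

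Genes beside a pseudogene made up much of the tested interval. By RefSeq order, 11 of the 13 genes called higher (84.6%) had a pseudogene as an immediate neighbour, against 3 of the 4 called lower and 43 of the 61 not called (70.5%). Among the 10 nearest loci, a median of 7 were pseudogenes around the genes called higher and 6 around those not called. Within the interval 19.3% of 57 genes with such a neighbour were called higher and 9.52% of the 21 without one. Elsewhere on chromosome 3 the shares were 7.26% of 303 and 3.02% of 3709. The shares called lower, with and without such a neighbour, were 5.26% and 4.76% in the interval and 4.62% and 1.56% elsewhere. These counts are a description, and the 21 genes without such a neighbour held 2 rises.

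Rises lay in both stretches of the interval. From AT3G30800 to AT3G33999, 5 of 19 tested genes were called higher (26.3%) and 2 lower, and from AT3G34000 to AT3G44000, 8 of 59 were called higher (13.6%) and 2 lower. The median was 0.29 in the first stretch and -0.01 in the second, and their difference was not tested. The next tested genes on either side, 215 from AT3G27000 to AT3G30799 and 254 from AT3G44001 to AT3G47800, were called higher at 6.98% and 5.51%. In bins of 1000 locus numbers with at least 20 tested genes, 50 in all, the bin from AT3G43000 had the highest share called higher on the chromosome, at 17.1% of 41 genes. The next, from AT3G25000, had 11% of 82, and the median bin 3.43%.

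**Figure D5:**
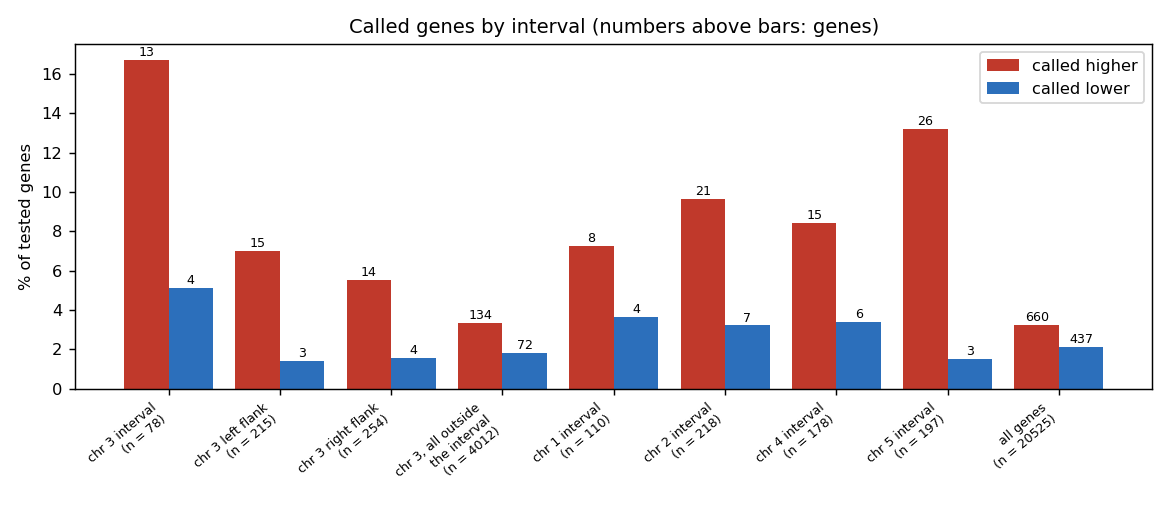
Bars give the share of tested genes called higher (red) and lower (blue) in each interval, with the number of genes above each bar and the number tested on the x axis. The chromosome 3 interval stands at 16.7% higher and 5.13% lower, against 3.34% and 1.79% for the rest of chromosome 3.

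The ends of the interval were set by number, and genes just inside and outside show no step. Inside the left end, AT3G30840 was at 0.23 ± 0.24 and AT3G30841 was called lower. Outside it, ERD5 (AT3G30775), a proline dehydrogenase, was at 0.04 ± 0.34. One gene further out, QQS (AT3G30720), which acts on starch content, was called higher at 3.17, 2.71, 3.14 and 3.70 and is not counted in the interval. At the right end, AT3G43960 (-0.40) and AT3G43980 (-0.05) inside and AT3G44010 (0.09) and AT3G44020 (0.28) outside were not called.

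Stretches of the other chromosomes around their centromeres also had more genes called higher than the array as a whole. The share called higher was 7.27% of 110 genes from AT1G36000 to AT1G45000 and 9.63% of 218 from AT2G05000 to AT2G15000. It was 8.43% of 178 from AT4G04000 to AT4G09000 and 13.2% of 197 from AT5G27000 to AT5G36000. In the same order, the shares called lower were 3.64%, 3.21%, 3.37% and 1.52%, against 2.13% of all tested genes. These limits were also set by locus number, and the shares were not tested against that of chromosome 3.

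Most of the larger rises kept their call without any single array, but those of AT3G42310 and AT3G43150 did not. Of the 13 genes called higher, 11 were at least 2-fold up on each of the 4 arrays, and 8 were called without each array in turn (AT3G31910, AT3G31950, AT3G33528, AT3G43572, AT3G43574, AT3G43580, AT3G43833 and AT3G43880). On arrays 1 and 2 alone, the arrays on which VIM2 and VIM3 were below 0, 3 of the 13 were called (AT3G43572, AT3G43574 and AT3G43833) and 0 of the 4 falls. On these 2 arrays 6 genes elsewhere on chromosome 3 were called higher and 0 lower. The means on these arrays kept the direction of all 13 rises, from 1.28 to 4.97, and of all 4 falls, from -1.67 to -0.85.

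With the scanner's own processed signals the interval had 16 genes called higher and 6 lower of 78, and the 13 and the 4 were among them. Elsewhere on chromosome 3 that scaling gave 108 higher and 141 lower in place of 134 and 72. The authors' series matrix, which gives values for 69 of the 78, had 14 called higher and 3 lower, against 120 and 118 elsewhere on the chromosome. Rises made up 76.5% of the calls in the interval, 72.7% with the scanner's signals and 82.4% with the series matrix. Over all tested genes these shares were 60.2%, 42.1% and 47.5%.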

How the data were processed

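RNA of 14-day-old seedlings was measured on 4 Agilent 2-colour arrays (Cy5 vim1,2,3, Cy3 Col) of 1 slide, which the series describes as independent biological samples. Spot intensity, deposited as medians per the file headers, came from Agilent Feature Extraction 10.7.3.1. The deposited processed intensity had been background-subtracted and dye-normalized, per the file headers. The authors' deposited scanner log ratio is a log10 value, per the file headers. Per probe, the authors also deposited log2 ratios as a series matrix, of unstated centring, whose correlation with the scanner ratio was 0.998 to 0.999.

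Median signals were corrected with normexp (offset 50) and normalized by loess within arrays in limma 3.58.1 (R 4.3.3), with 1417 control spots of 45220 at weight 0 and outlier spots left out. The offset draws ratios of dim spots towards 0. Of 43603 probes, 34185 matched a RefSeq transcript of TAIR10.1, for 25347 loci. The array's header names an older build, so the table served for names and gene order only. Testing required a probe to exceed background clearly (the scanner's flag) in 1 channel or both on 3 or more of the 4 arrays, and the brightest stood for its gene. The test was limma's lmFit on the 4 ratios with eBayes and Benjamini-Hochberg adjustment over 20525 genes, checked on simulated data. A bound compares the bright RNA's mean with the dim channel's mean after Aquantile, with dim values below that channel's floor raised to the floor. The floor is the lowest signal well above background, and a bound is open to dye bias without dye swaps. Figures used matplotlib 3.10.9.

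The interval, the lists and the tests were chosen with earlier results of these data known. The rule named up to 12 rises and 8 falls of the same sign on 4 arrays, listed members, genes at the ends, members with bounds or probes of opposite sign, and VIM1 to VIM3. Alternatives covered signals, centring, background, dim and saturated probes, probe choice, array weights, the fold minimum and arrays. Promoter sequences were not analysed here. Probes shared with near-identical copies were not assessed.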

Additional observations from a re-analysis of the deposited data

Results flagged for a closer look

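Of 44 genes checked on 4 arrays, 4 had an array far from the other 3, where chance gives about 1 in 20. AT3G31950 stood at 2.28 on array 1, below 4.15 to 4.50 on the others, and AT3G43432 at 1.02 on array 3, below 1.75 to 1.90. AT3G43574 stood at 4.58 on array 2, above 4.19 to 4.24, and SUS4 (AT3G43190) at 1.24 on array 1, above 0.59 to 0.64.

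A rise was also seen in probes that the comparison did not use. The brightest probe of AT3G42130 was saturated on each of the 4 arrays in the red channel, which carried the RNA labelled vim1,2,3, and gave -0.61, whereas its other probe, saturated on none, gave 2.05, 2.13, 1.75 and 2.28 (mean 2.05). With probes not saturated, AT3G42130 was called higher. The dim probe of AT3G30820 averaged 1.26 and that of AT3G32160 averaged 1.36, and AT3G30820 was called higher with no filter on dim probes.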

How the results depend on the processing

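With 4 arrays, 1 dye orientation and no pseudogene of the interval matched to a probe, the counts describe these arrays and the brighter protein-coding loci. Without each array in turn, 8 to 15 genes of the interval were called higher and 1 to 3 lower, against 34 to 198 and 8 to 103 elsewhere on chromosome 3. The lowest counts of rises came without array 4 (8, with 2 lower), and those of falls without array 3 (1), with 2 lower without array 1. The median of the interval then ran from 0.041 to 0.10. Without arrays 3 and 4, 3 were called higher and 0 lower by limma, against 6 and 0 elsewhere. With both channels required on 4 arrays, 7 were called higher, the median was 0.0011 and the difference from other chromosome 3 genes 0.073. That difference was 0.093 with no filter and 0.19 with the scanner's signals, which gave a median of 0.027, and median centring gave 0.10. With no fold minimum, 20 were called higher and 6 lower, against 232 and 205 elsewhere. The number called lower elsewhere on the chromosome was 141 with the scanner's signals and 118 with the series matrix. Each ratio already pairs the 2 RNAs of an array, so the fit on the ratios is a paired one and no other pairing was used.

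Signs turned for uncalled genes near 0 and for VIM2 and VIM3. With the scanner's signals BPM6 (AT3G43700) was at -0.094, GSTU27 (AT3G43800) at 0.017, ERD5 (AT3G30775) at -0.084 and VIM2 (AT1G66050) at -0.14. With the series matrix BPM6 was at -0.10 and ERD5 at -0.091. Median centring put GSTU27 at 0.036, and the mean of all probes put ATMIN7 (AT3G43300) at -0.16 and BPM6 at -0.12. Array weights put BPM6 at -0.056, GSTU27 at 0.054 and VIM3 (AT5G39550) at 0.19. Without arrays 3 and 4, ZIFL2 (AT3G43790) was at 0.041 and VIM2 at -1.36. Without each array in turn, TES (AT3G43210) ran from -0.34 to 0.036, ATMIN7 from -0.019 to 0.14, BPM6 from -0.064 to 0.12, GSTU27 from -0.10 to 0.11 and ERD5 from -0.11 to 0.13. Likewise AT3G44010 ran from -0.023 to 0.23, AT3G43980 from -0.21 to 0.11, ZIFL2 from -0.29 to 0.00087, VIM2 from -0.54 to 0.54 and VIM3 from -0.70 to 0.27. The cause was not tested.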

Other observations

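The following 4 genes of the interval were chosen after their values were seen. AT3G43290 gave 1.33, 0.31, 3.35 and 3.29 on arrays 1 to 4 (mean 2.07, adjusted p = 0.0567 by limma), and it was the 1 gene above 2-fold that was not called. Its other tested probe gave 0.20, -0.03, 1.15 and 0.75 (mean 0.52). The intensity of the brighter probe in the RNA labelled vim1,2,3 was 190.9, 61.1, 2006 and 1537, against 42.0 to 144.9 in Col. The neighbouring AT3G43291, too dim to be tested, was at 0.09, 0.38, 1.93 and 1.46.

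AT3G43670 changed sign between arrays, with 0.95, 1.14, -1.38 and -1.49 in array order. Its Col intensity was 1755, 1308, 7515 and 5548 and that of the RNA labelled vim1,2,3 was 3341, 2993, 2706 and 1915. The median spot signal also differed between arrays, from 637 to 1270.5 in Col and from 949 to 1718 in the other RNA. These intensities therefore do not show in which RNA the gene changed. AT3G31350 was at 0.89, 0.98, 1.00 and 0.99 (0.97 ± 0.05, adjusted p = 0.0165), just short of 2-fold with almost no spread.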
